A study of Arabidopsis thaliana with 12 samples.

Results

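The response described here is that of Arabidopsis thaliana seedlings mutated in both ERF5 and ERF6 to chitooctaose, a soluble chain of N-acetylglucosamine units of the kind released from fungal chitin. It was taken from the 3 arrays of mutant seedlings given chitooctaose and the 3 arrays of mutant seedlings given water, which are 6 of the 12 arrays of the study. All 6 arrays carry the erf5/6 double mutation, so the treatment is what sets the groups apart: 1 µM chitooctaose or the same volume of water, for 30 min, at 14 days of age. Whole seedlings were used, grown under constant light on a sugar-containing medium. The other 6 arrays hold wild-type seedlings given the same treatments at the same age, and they enter the shared estimate of the spread and the comparison of the responses. The labels call the 3 arrays of a group biological replicates and do not say whether they came from separate cultures, so p-values measure the spread between these samples. They give neither the alleles nor the number of mutant lines. Of 22746 probe sets, 18680 lay above an intensity floor of 16 on at least 1 of the 12 arrays and were tested. The gene table names no probe set as ERF5 or ERF6, so the genotype was not checked against the targeted transcripts.

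In plants, chitin fragments are recognised at the cell surface by receptor kinases with lysin motifs, among them CERK1 in Arabidopsis. Receptor-like cytoplasmic kinases, a flow of calcium into the cytosol, reactive oxygen and mitogen-activated protein kinases then carry the signal, and genes for transcription factors, secreted peptides and ubiquitin ligases are switched on within minutes. ERF5 and ERF6 belong to the AP2/ERF family of transcription factors, many of which bind the GCC-box in promoters of defence genes.

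Chitooctaose changed the mutant transcriptome mainly upward. With limma, 1111 of the 18680 probe sets were called higher (5.95%) and 497 lower (2.66%), together 8.61%, at an adjusted p under 0.05, and 3817 (20.4%) had an unadjusted p under 0.05. The rises were also the larger changes: their median was 1.20 on the log2 scale, against -0.55 for the falls and -0.08 for all probe sets tested. Of the calls, 649 were rises of at least 2-fold (3.47%) and 47 falls of that size (0.252%). At least 4-fold rises numbered 295 (1.58%), of which 125 reached 8-fold and 46 reached 16-fold, while 0 probe sets (0%) were called with a fall of that size. Water and chitooctaose arrays did not overlap for 1110 of the 1111 rises and 496 of the 497 falls, against 8.8% of all tested probe sets with non-overlapping groups in the upward and 17.8% in the downward direction. The share of falls among calls was 30.9%, and 16.6% with the deposited intensities taken without further normalization. The number of falls was lower whichever mutant array was left out. It ranged from 302 without array 3 of the chitooctaose group to 382 without array 2 of that group. Fewer cells of a type and less RNA per cell cannot be told apart in these whole seedlings.

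The share of rises differed with the signal of a probe set before treatment, a signal that also depends on the probes themselves. Of the 5597 probe sets with a mean intensity of 16 to 64 in water, 6.95% were called higher, and of the 6874 between 64 and 256, 6.63% were. The share was 3.95% of 4128 probe sets between 256 and 1024 and 1.46% of 1367 above 1024. Rises of at least 4-fold numbered 137, 100, 22 and 0 in these 4 classes. The falls had another distribution: 1.8%, 3.86%, 2.96% and 0.658% of the same classes were called lower. The classes use the water arrays of the contrast itself, and the floor limits how far a probe set of the lowest class can fall, so these shares are a description. Another 714 probe sets lay at the floor on all 3 water arrays; they had been tested because some other array was above it, so their 83 calls, all of them rises, are given as a description.

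**Figure D1:**
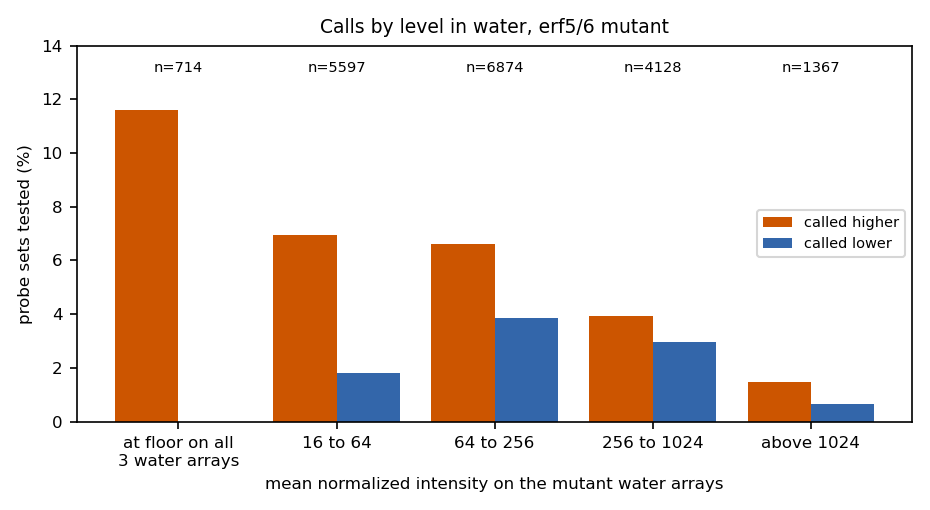
Share of tested probe sets, in percent, called higher (orange) or lower (blue) in the erf5/6 mutant after chitooctaose, by their mean normalized intensity on the 3 mutant water arrays, with the number tested above each class. The share called higher falls from 6.95% in the class from 16 to 64 to 1.46% above 1024, while the share called lower peaks at 3.86% between 64 and 256; the class at the floor was tested through other arrays and could hold rises alone.

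The gene with the largest measured rise was AT2G22880, which encodes a VQ-motif protein, a class of proteins known to bind WRKY factors. Its normalized intensity was 33.7, 23.8 and 26.8 on the 3 water arrays and 1397, 1311 and 1439 on the 3 chitooctaose arrays, a log2 change of 5.64 with a standard error (SE) of 0.30 (n = 3 arrays in each group, limma adjusted p = 1.54e-07), and later values after ± are likewise SEs. STZ, a C2H2 zinc finger repressor also known as ZAT10, had the second largest change, with 71.3, 78.8 and 67.3 in water and 2448, 2772 and 2574 in chitooctaose. It changed by 5.17 ± 0.17 (limma adjusted p = 4.72e-09). In each of these genes every chitooctaose array lay more than 16-fold above every water array.

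The 30 largest measured rises spanned 3.55 to 5.64 on the log2 scale, with limma adjusted p-values of 9.92e-07 or lower. Group means lay between 16.1 and 243 in water and between 190 and 2992 in chitooctaose. All 30 kept their call under each alternative processing run, and for AT5G37490 (3.60) the change fell to 2.32 when 32 was added to every intensity instead of setting a floor. AT5G37490, AT1G24140 (4.88), AT1G36640 (3.55) and AT5G28610 (4.25) had the lowest water means of the 30, at or just above the floor. Their changes and SEs are therefore set by the floor, and with 32 added the last 3 changed by 3.44, 2.42 and 2.89. The 30 include 5 genes with a symbol: STZ, WRKY53, WRKY22, ZCF37 and AR781. The other 25 carry a locus code in the gene table.

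Several of the lesser described genes of that group were higher on every chitooctaose array than on any water array. AT4G27280 went from 218.2, 250.4 and 263.9 to 2942, 3145 and 2895, a change of 3.62 ± 0.10. AT1G05575 went from 103.6, 128.8 and 116.9 to 1676, 1959 and 1926. AT4G29780 stood out for how close its arrays were, with 80.5, 93.6 and 87.5 in water against 1399, 1414 and 1411 in chitooctaose. AT2G25735 changed by 4.40 ± 0.14, from 65.5, 62.9 and 72.4 to 1407, 1503 and 1320. ZCF37 rose from 42.8, 51.5 and 43.3 to 869.2, 1147 and 784.2, and AR781, a gene of the touch-responsive list, from 79.1, 97.5 and 61.9 to 1446, 1291 and 1592. The water and chitooctaose arrays of each were separated by a wide gap. The files and the gene table give no function for AT4G27280, AT1G05575, AT4G29780 and AT2G25735.

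In a further group all 3 water arrays of the mutant sat at the floor, so that only a lower bound of the rise can be given. AT3G02840, an ARM-repeat gene, reached 1026, 1217 and 943.6 in chitooctaose, at least 66.0-fold above the floor. AT1G07160, a gene for a protein phosphatase of the PP2C class, reached 1090, 1101 and 921.3, at least 64.6-fold higher. Its adjusted p (8.07e-12, limma) rests on water arrays held at the floor, which narrows the spread, so it is not ranked against other genes. Both genes lay at the floor on every water array and far above it on every chitooctaose array. AT3G01830, an EF-hand calcium sensor gene, reached 392.6, 386.5 and 369.9, at least 23.9-fold higher. AT4G37290 and AT2G23270, of the secreted peptide list, were at least 20.2-fold and 17.9-fold higher. CML37, a calmodulin-like sensor gene, reached 194.1, 249.5 and 204.1, at least 13.4-fold higher. AT3G55840 was also at least 13.4-fold higher, with 223.9, 210.9 and 206.8. The other 8 of the 15 largest bounds ran from at least 11.6-fold for the NAC factor gene AT3G12910 down to at least 5.97-fold for AT4G23610. With 32 added in place of the floor, called the offset from here on, 4 of the 15 changed over 1.5 times less on the log2 scale: 2.04 for AT1G53080 (3.15 with the floor), 1.89 for AT4G11000 (3.10), 1.63 for TET9 (2.69) and 1.73 for AT3G48650 (2.59).

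**Figure D2:**
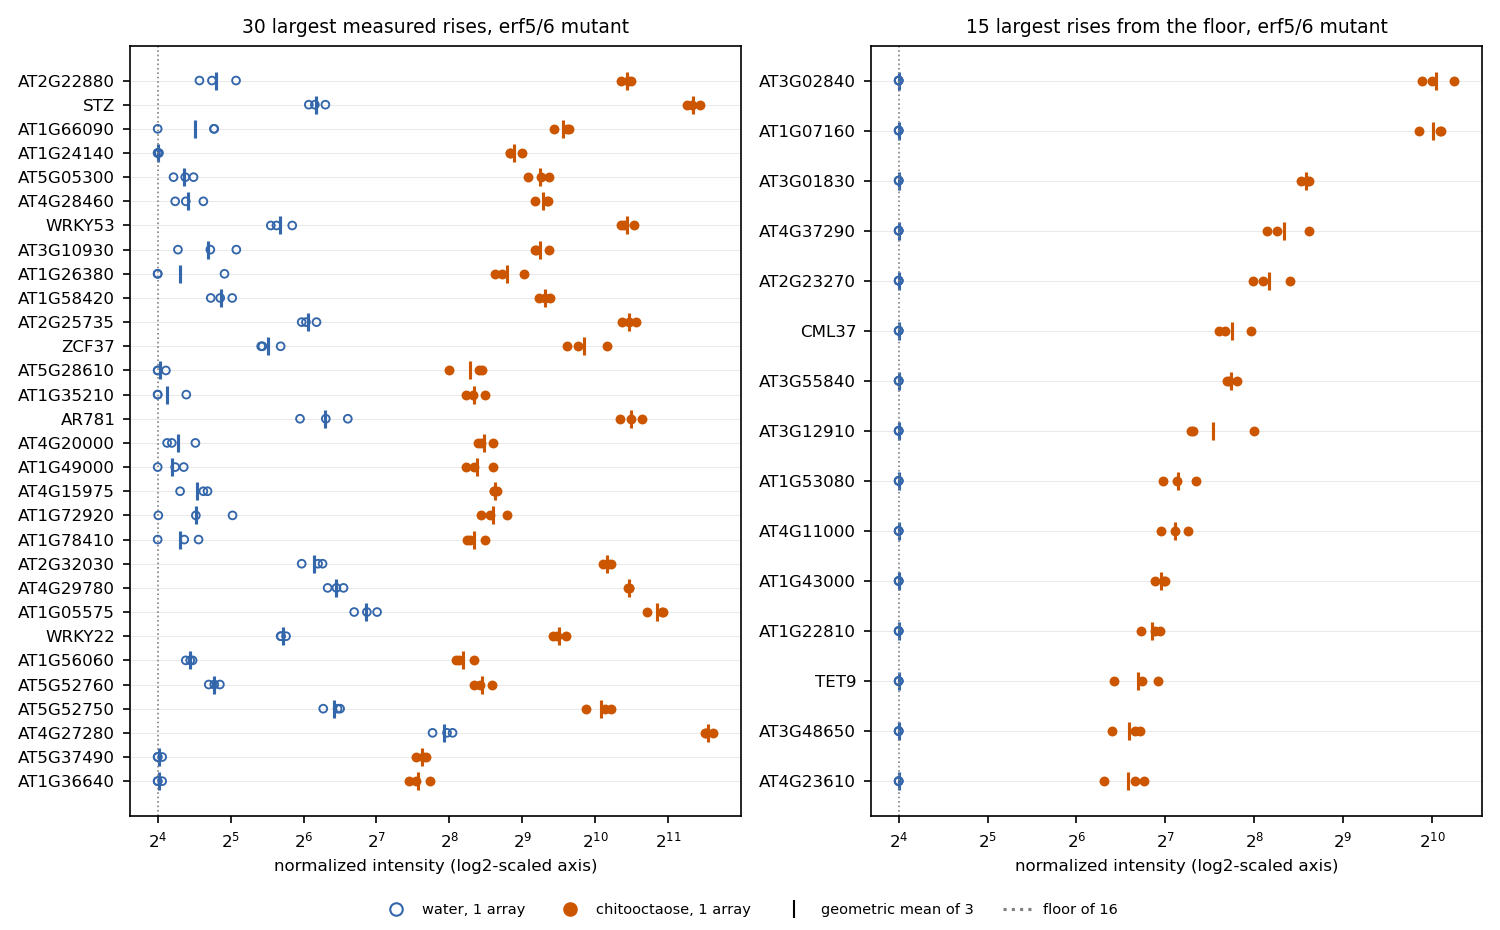
Normalized intensity, on a log2-scaled axis, of the 30 genes with the largest measured rises (left) and the 15 genes with the largest rises from the floor (right) in the erf5/6 mutant. Open blue circles are the 3 water arrays and filled orange circles the 3 chitooctaose arrays. Bars are the geometric mean of each group and the dotted line is the floor of 16. In every gene shown all chitooctaose arrays lie above all water arrays, which the choice of the 30 genes required.

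Probe sets without a gene in the table took part as well. Of the 1608 calls, 866 were probe sets of 1 gene, 709 had no listed gene and 33 had several. The largest rise among the unnamed ones, probe set 248448_at, went from 61.5, 74.9 and 74.7 to 2007, 2025 and 2337, a change of 4.92. Probe set 266821_at went from 17.5, 16 and 16 to 422.6, 381.6 and 462.2. Of the rises of at least 4-fold, 157 had 1 gene and 133 had none listed. The description of gene groups below therefore covers part of the response.

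Gene groups were described through lists of genes and families, with each gene represented by 1 probe set. Of 801 list entries, 109 had a probe set of 1 gene and 104 were tested, so no list stands for its whole pathway. Over all 10447 genes with such a probe set, 594 (5.69%) were called higher and 266 (2.55%) lower, with a median change of -0.09. The list counts are to be read against these shares.

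At the cell surface and just below it, several kinase genes rose. Of 23 entries for chitin and pattern perception, EFR, the receptor for bacterial elongation factor Tu, and FER, which encodes the receptor kinase FERONIA, were tested, and neither was called (0.46 from the floor in water, adjusted p = 0.234, and 0.07, adjusted p = 0.708, limma). EFR was called with the offset (0.39, adjusted p = 0.0376), with array weights (0.0365) and without array 2 of the chitooctaose group (0.0387, all limma). CERK1 was not analysed here. BIK1, a receptor-like cytoplasmic kinase that acts downstream of several immune receptors, went from 257.1, 235.4 and 230.7 to 672.3, 557.4 and 611.4. It rose by 1.35 ± 0.14, with no overlap between groups. PTI1-4, a kinase of the Pto-interacting family, rose by 1.37 ± 0.10, from 227.5, 244.3 and 236.4 to 570.2, 708.1 and 565.5. B120, an S-locus lectin receptor kinase gene, was near the floor in water (18.9, 18.3 and 16.5) and at 178.1, 187.3 and 171.8 in chitooctaose. Its rise was 3.32 ± 0.20, and 2.08 with the offset. ATSIK rose by 1.39 and ATN1 by 0.74.

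Genes of calcium signalling gave 5 rises and 0 falls among 9 tested, with a median change of 1.42. For 3 of the 9, all arrays of 1 mutant group lay at the floor. The median is the floor-set change of GLR2.8, which was 0.87 with the offset. CML38, a calmodulin-like protein, went from 72.1, 90.0 and 49.6 to 357.3, 364.1 and 421.3 (2.47 ± 0.19). CML42 was at 346.0, 292.8 and 288.7 in water and reached 1271, 1254 and 1168 (2.00 ± 0.11). CML23 rose by 1.5 ± 0.16, from 67.9, 47.6 and 65.0 to 174.0, 162.1 and 170.0. All water arrays of these sensors lay below all chitooctaose arrays. GLR2.8, a glutamate receptor-like cation channel, was at the floor in water and at 42.8, 43.2 and 42.5 in chitooctaose, at least 2.68-fold higher (1.42 with the floor and 0.87 with the offset). The channel genes GLR2.7 (0.54, adjusted p = 0.104, limma) and GLR2.9 (0.36, adjusted p = 0.471) and the sensor genes CML43 (0.06) and CML41 (-0.01) were not called. GLR2.9 was called with the offset (0.58, adjusted p = 0.00616, limma). GLR2.7 was called with array weights (adjusted p = 0.0451, limma) and without array 2 of the wild-type chitooctaose group (0.0429).

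Among transcription factor genes, WRKY genes gave several rises. Of 6 tested genes annotated as WRKY factors, which bind the W-box of defence promoters, 3 were called higher and 0 lower. WRKY53, a regulator of senescence and defence, rose from 49.5, 57.5 and 46.9 to 1350, 1485 and 1314 (4.76 ± 0.14). WRKY22, a factor of the early response to bacterial flagellin, rose from 51.7, 51.5 and 54.2 to 778.3, 712.0 and 686.2 (3.79 ± 0.15). WRKY6 rose from 90.4, 110.7 and 85.7 to 477.2, 344.8 and 426.7 (2.12 ± 0.15). The other WRKY genes were not called: WRKY47 had 0.19, ZAP1 had -0.13 and WRKY20 had -0.16, with limma adjusted p-values of 0.539, 0.418 and 0.357. BZIP60, a factor of the unfolded protein response of the endoplasmic reticulum, rose by 1.46 ± 0.08, from 681.9, 634.8 and 692.0 to 1826, 1940 and 1743. Of 18 tested bZIP genes, 2 were called higher and 1 lower, with a median of -0.08. The others called were BZIP28 (0.39, adjusted p = 0.0376, limma) and bZIP58 (-0.39, adjusted p = 0.0487, limma). Their calls were lost under 12 and 19 of the 21 other settings, with adjusted p-values up to 0.136 and 0.15 (limma). Of 3 tested AP2/ERF genes of the list, tny, also called TINY, was called lower, while ORA47 (0.07) and PUCHI (-0.07) were not called. These 3 were all that could be tested of 53 entries, so the list does not show whether other AP2/ERF genes rose or fell. Members outside the list, such as AT5G61590 below, were not counted. Of the 1111 probe sets called higher, 484 had no listed gene, so rises in this family could go unnamed. MYC3 (-0.02) and MYC4 (-0.42, adjusted p = 0.408, limma), factors of jasmonate signalling, were not called, nor was any of 7 tested bHLH genes, whose median was -0.25.

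Among U-box genes, which encode ubiquitin ligases, 4 of 8 tested rose and 0 fell, with a median change of 0.77. PUB22, PUB23 and PUB24 together damp immune signalling. PUB23 was at 147.2, 140.6 and 153.2 in water and 1799, 1419 and 1559 in chitooctaose (3.43 ± 0.11). PUB24 went from 38.0, 32.8 and 33.4 to 360.6, 376.6 and 345.6 (3.38 ± 0.08), and PUB22 from 115.1, 118.8 and 76.2 to 758.1, 607.9 and 724.4 (2.77 ± 0.20). PUB25, a ligase known to mark BIK1 for degradation, rose by 0.91 ± 0.14, from 83.0, 85.1 and 99.0 to 139.8, 182.8 and 181.2. PUB26, which acts with PUB25, had 0.62, and its arrays did not overlap between groups, but it was not called (adjusted p = 0.112, limma). PUB43 (0.16), PUB49 (-0.18) and PUB19 (-0.13) were not called. Of 3 tested genes of the RING ligase family, 2 were called higher and 1 lower. RING1, a RING-type ligase of cell death control, rose by 1.27 ± 0.17, from 150.6, 150.6 and 149.8 to 303.0, 406.5 and 389.1. RHF1A had 0.52 and BRH1 had -0.50 (adjusted p = 0.0257 and 0.0441, limma). The calls of RHF1A and BRH1 were lost under some other settings, with adjusted p-values up to 0.0839 and 0.163 (limma).

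Genes for secreted peptides and for metalloproteinases also rose. All 5 tested entries of the secreted peptide list were called higher, but these entries had been chosen with their earlier values known. AT4G28460 (4.87), AT5G05300 (4.88) and AT3G10930 (4.56) were measured on water arrays above the floor, and for AT4G37290 and AT2G23270 the lower bounds above apply (3.17 and 2.89 with the offset). AT5G05300 and AT3G10930, which encode IDA-like peptides, went from 20.8, 22.5 and 18.6 to 614.5, 662.4 and 542.9 and from 33.8, 26.4 and 19.4 to 580.1, 586.1 and 661.1. RALFL33, a peptide of the RALF family, was at 734.5, 659.8 and 748.7 in water and rose by 0.77 ± 0.11, to 1252, 1207 and 1198. AT1G24140, a matrix metalloproteinase gene, was at 16, 16 and 16.2 in water and at 455.5, 512.2 and 457.6 in chitooctaose, a rise from the floor whose size is not fixed by these arrays (4.88 with the floor, 3.44 with the offset). Another metalloproteinase gene, MMP, rose by 1.09 ± 0.23, and by 0.63 with the offset.

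Of 11 tested genes for chitinases, glucanases and antimicrobial proteins, 3 were called higher and 0 lower, with a median change of 0.36. Chitinases cut chitin into shorter chains. The chitinase gene AT4G01700 rose from 149.2, 178.1 and 182.5 to 566.3, 532.6 and 461.1 (1.61), and AT1G02360 from 200.7, 220.6 and 253.8 to 741.2, 785.5 and 622.6 (1.67). The third call, AT2G43620 (1.01, adjusted p = 0.0204, limma), was lost without array 2 or 3 of the water group (adjusted p = 0.066 and 0.0711), without array 1 of the chitooctaose group (0.0813) and when the 4066 probe sets left out as dim were tested too (0.0591). The chitinase gene AT2G43590 had 1347, 1173 and 1359 in water and 1180, 768.8 and 1020 in chitooctaose, and was not called (-0.40, adjusted p = 0.167, limma). PDF1.2, a plant defensin gene used as a marker of the joint jasmonate and ethylene response, had 151.3, 127.3 and 80.7 in water and 331.9, 239.0 and 243.9 in chitooctaose. Its groups did not overlap, but with an SE of 0.56 on a change of 1.21 it was not called (adjusted p = 0.254, limma). That SE comes from all 12 arrays: PDF1.2 was called when the 6 mutant arrays alone were fitted (adjusted p = 0.0256, limma) and without array 2 of the wild-type water group (0.0446).

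Genes that act on the cell wall gave 4 rises and 0 falls among 12 tested, with a median of -0.05, and the other 8 were not called. XTH18, a xyloglucan endotransglucosylase, went from 371.6, 412.8 and 375.7 to 1586, 1563 and 1507 (2.01 ± 0.08), and its neighbour XTH19 from 766.4, 687.3 and 720.4 to 1088, 1204 and 1079 (0.63 ± 0.09). The other 6 tested xyloglucan endotransglucosylase genes of the family were not called; XTH32 (-0.31) was called lower with array weights (adjusted p = 0.0383, limma) and without array 3 of the chitooctaose group (0.039). ATPMEPCRB, which encodes pectin methylesterase 41, rose by 1.75 ± 0.12, from 277.9, 233.3 and 283.9 to 940.0, 930.9 and 796.6. CSLC04, a glucan synthase that makes the xyloglucan backbone, rose by 0.89 ± 0.11. Of 16 tested expansin genes, EXLA3 was called (1.25, and 0.59 with the offset). EXLA1 (0.49, adjusted p = 0.0675, limma) was not, but was called under 6 of the other settings, with adjusted p-values from 0.017 (array weights) to 0.0446 (intensity trend). cwINV6, a cell wall fructan exohydrolase, rose by 1.28 (0.77 with the offset).

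In membrane traffic, tetraspanin genes showed 2 distinct members. TET8, whose protein marks vesicles released from plant cells, was at 757.4, 703.6 and 778.1 in water and at 2827, 2873 and 2806 in chitooctaose (1.93 ± 0.11). TET9 was at the floor in water and at 106.4, 121.3 and 85.9 in chitooctaose, at least 6.47-fold higher. The other 9 of the 11 tetraspanin genes tested were not called, with changes from -0.29 to 0.17. VPS60.1 and VPS2.1, subunits of the ESCRT-III complex that shapes endosomal membranes, rose by 0.92 ± 0.09 and 0.68 ± 0.09. VPS60.1 went from 164.2, 149.8 and 165.9 to 309.9, 303.3 and 292.8, with no overlap. Their close relatives VPS60.2 (0.03) and VPS2.2 (-0.07) were not called.

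**Figure D3:**
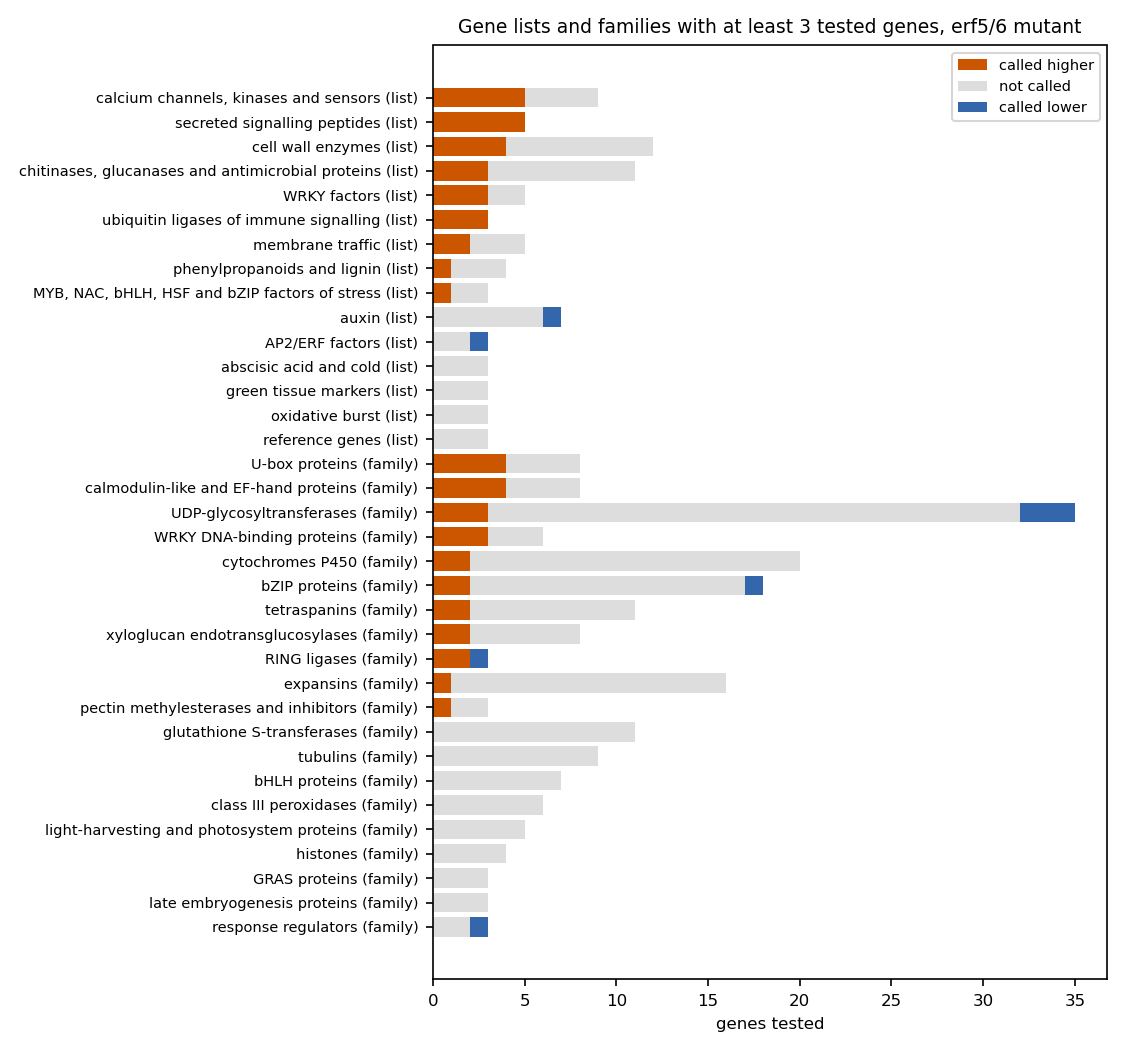
Number of genes tested in each gene list or annotation family with at least 3 tested genes, split into those called higher (orange), not called (grey) and called lower (blue) in the erf5/6 mutant. All 3 tested immune ubiquitin ligases and all 5 tested secreted peptides were called higher, while 0 of 11 glutathione S-transferases and 0 of 9 tubulins were called. Over all genes 5.69% were called higher. The lists were chosen with earlier results of these data known, so the bars are a description.

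Hormone genes were represented by few members and moved in both directions. OPCL1, a CoA ligase of jasmonate synthesis, rose from 152.7, 142.9 and 102.9 to 430.3, 421.0 and 455.0 (1.73 ± 0.16), and DLAH, an acylhydrolase of the DAD1 type that releases fatty acids from lipids, from 47.9, 70.9 and 95.0 to 826.4, 805.5 and 675.2 (3.48 ± 0.24). SAG101, a partner of EDS1 in immune signalling, rose by 1.14 ± 0.16, and SGT1A, a co-chaperone of immune receptors, by 0.79 ± 0.09. The ethylene signalling genes EIN3 (0.01) and RTE1 (-0.23) and the cold-responsive genes COR47 (-0.04), COR15A (0.01) and COR15B (0.03) were not called. Of 7 tested auxin genes, WAG2 was called lower and the other 6 were not called, with a list median of -0.36. LBD16 and IAA29 had -0.47 each, with adjusted p-values of 0.172 and 0.21 (limma). LBD16 was called without array 1 of the water group (-0.67, adjusted p = 0.0369, limma) and IAA29 without array 2 of it (-0.69, adjusted p = 0.0446, limma). Of 2 tested genes of the cytokinin, gibberellin and brassinosteroid list, ARR15, a response regulator of cytokinin signalling, fell from 90.7, 77.7 and 70.5 to 45.7, 43.7 and 49.2 (-0.78 ± 0.17, and -0.51 with the offset), and RR16 (-0.24) was not called. The call of ARR15 was lost without array 1 of the water group (adjusted p = 0.0661, limma) and without array 1 or 2 of the chitooctaose group (0.0523 and 0.0582). GH3.17, an enzyme that joins auxin to amino acids, fell by 0.42 and GID1A, a gibberellin receptor, by 0.36 on the log2 scale. Their calls were lost under 5 and 10 of the 21 other settings, with adjusted p-values up to 0.0745 and 0.213 (limma).

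Metabolic genes moved in both directions. Of 39 tested genes with a UGT symbol, which encode glycosyltransferases of small molecules, 3 were called higher and 5 lower, with a median of -0.17; this group was formed after values had been seen. UGT73B5 rose from 35.1, 27.4 and 26.2 to 97.2, 76.5 and 87.8 (1.57, and 0.95 with the offset). UGT71B6, which glucosylates abscisic acid, was at the floor in water and at 50.6, 48.8 and 39.7 in chitooctaose, at least 2.88-fold higher (1.53 with the floor, 0.83 with the offset). UGT72E2, which glucosylates monolignols, fell from 458.5, 534.3 and 486.9 to 339.4, 340.0 and 320.3 (-0.56 ± 0.11), and UGT72B3 (-0.54) and UGT85A4 (-0.53) fell by similar amounts. The call of UGT73D1 (1.07, and 0.51 with the offset) was lost without array 1 of the chitooctaose group (adjusted p = 0.0545, limma). The call of UGT71C3 (-0.68) was lost without array 3 of the water or of the chitooctaose group (adjusted p = 0.068 and 0.0655, limma). That of UGT84A3 (-0.45) was lost without array 2 of the water group (0.0822), without array 1 or 3 of the chitooctaose group (0.0899 and 0.0503) and with the deposited values (adjusted p = 0.0717, limma).

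Among other enzymes, CCR2, a cinnamoyl-CoA reductase of lignin synthesis, was at the floor in water and at 66.2, 62.3 and 59.9 in chitooctaose, at least 3.92-fold higher (1.97 with the floor, 1.13 with the offset). The flavonoid gene DFR had -0.82 and the lignin gene HCT -0.29, neither called (adjusted p = 0.372 and 0.131, limma). SUFE2, a sulfur acceptor for iron-sulfur cluster assembly, rose by 2.16 ± 0.14, from 113.5, 84.9 and 92.5 to 413.0, 415.1 and 468.1. APS3, an ATP sulfurylase, rose by 0.90 ± 0.15, and MSRB9, a methionine sulfoxide reductase, by 0.75 ± 0.08. HEMA2, a glutamyl-tRNA reductase of tetrapyrrole synthesis, rose from 136.0, 137.3 and 154.1 to 394.2, 415.6 and 355.9 (1.45 ± 0.12). CYP71B5 rose by 1.11 ± 0.15. None of 11 tested glutathione S-transferase genes was called with limma, and their median was -0.12. GSTU22 (-0.46, adjusted p = 0.0534) was called lower with the replicate block (adjusted p = 0.0131, limma), with the 40% dimmest probe sets left out (0.0339), without array 1 of the chitooctaose group (0.0152) and without array 1 or 2 of the wild-type chitooctaose group (0.049 and 0.0494). GTR1, a glucosinolate transporter, rose by 0.74 ± 0.16. pEARLI4 was at 289.4, 260.1 and 288.0 in water and reached 1295, 1252 and 1224 (2.17 ± 0.09).

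The falls were smaller, with the 20 largest measured ones between -1.62 and -0.97 on the log2 scale. AT5G61590, known as DEWAX, an AP2/ERF repressor of wax synthesis, had 604.0, 663.0 and 879.9 in water and 226.8, 216.2 and 249.6 in chitooctaose (-1.62 ± 0.13, limma adjusted p = 3.94e-06). AT5G03230 fell from 296.3, 316.9 and 274.1 to 95.4, 126.1 and 93.3 (-1.51 ± 0.23). In both the lowest water array lay more than 2-fold above the highest chitooctaose array. WAG2, an AGC kinase that directs auxin transport, fell from 104.8, 88.4 and 161.6 to 43.6, 47.7 and 56.0 (-1.23 ± 0.19). The AP2/ERF gene tny had 139.6, 147.0 and 144.0 in water and 70.6, 69.2 and 70.2 in chitooctaose (-1.04 ± 0.20). AT5G44680, at -1.03 ± 0.08, and AT4G16447, at -1.14 ± 0.08, had the smallest standard errors of these 20. Further down, XERICO, a RING protein that raises abscisic acid levels, fell by 0.74 on the log2 scale, from 225.7, 205.1 and 265.9 to 123.1, 167.6 and 128.9. QQS, a gene of starch metabolism found in Arabidopsis without known relatives, fell by 0.83, from 106.5, 124.1 and 95.4 to 68.9, 66.6 and 48.9.

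The size of several falls depended on the floor. With the offset in place of the floor, 9 of the 20 changed over 1.5 times less, between -0.79 and -0.47, and all 9 kept their call. These were AT1G64405, AT2G44940, AT3G51400, AT3G50300, AT4G16447, AT2G36090, AT1G06980, AT3G25870 and AT5G61570, whose chitooctaose arrays lay between 16 and 44.9. AT1G49200 (-1.17, adjusted p = 0.0176, limma) lost its call without array 3 of the water group (0.0743), without array 2 of the chitooctaose group (0.0711) and when the 4066 probe sets left out as dim were tested too (0.0546). Among probe sets without a listed gene, 265837_at had the largest called fall, from 325.1, 225.5 and 116.0 to 35.1, 62.5 and 72.5 (-1.91 ± 0.51, adjusted p = 0.042, limma). Its call was lost under 10 of the 21 other settings, with adjusted p-values up to 0.15. Probe set 266150_s_at fell from 151.6, 105.5 and 130.5 to 40.5, 33.7 and 34.5 (-1.82).

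**Figure D4:**
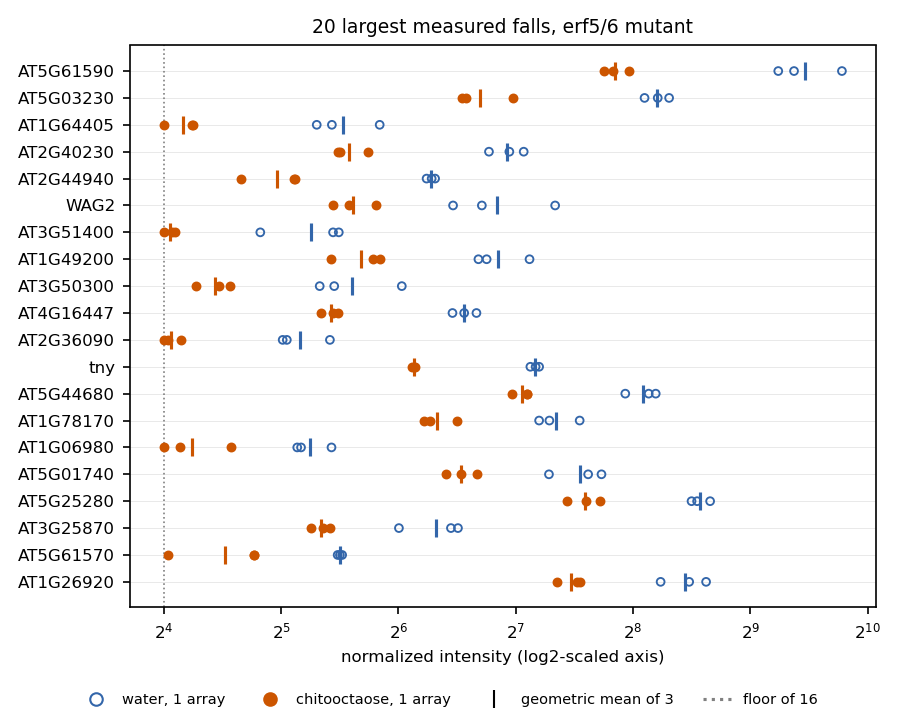
Normalized intensity, on a log2-scaled axis, of the 20 genes with the largest measured falls in the erf5/6 mutant. Open blue circles are the 3 water arrays and filled orange circles the 3 chitooctaose arrays. Bars are the geometric mean of each group and the dotted line is the floor of 16. The 20 genes were chosen with groups that do not overlap, and several chitooctaose arrays sit at or close to the floor.

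None of the tested genes that mark tissues or serve as references was called with limma. LHCB4.1, a light-harvesting protein of leaves, had 5532, 5275 and 5532 in water and 5491, 5581 and 5451 in chitooctaose (0.02), and RCA, the activase of Rubisco, changed by -0.01. PYK10, a root beta-glucosidase, lay between 4007 and 4287 on all 6 arrays (0.04), and the root hair gene EXPA7 had -0.08. Markers of leaf and of root were thus well above the floor in these whole seedlings. PAP85, a seed storage protein gene, stayed between 16 and 34.5, and FMA, a guard cell factor, changed by -0.17. The reference genes GAPC2 (0.05), PEX4 (-0.19) and AT2G28390 (-0.03) were not called.

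Some rises lay side by side on the chromosomes. In the gene order of RefSeq assembly TAIR10.1, 4133 pairs of adjacent genes were both tested; in 35 pairs both genes rose, in 3 both fell and in 5 they moved in opposite directions. Of 483 neighbours of a gene that rose, 70 had risen as well (14.5%), against 413 of 7783 neighbours of other genes (5.31%). AT5G52750 and AT5G52760 rose by almost the same amount, 3.66 ± 0.19 and 3.67 ± 0.22, from 90.6, 88.5 and 77.2 to 1126, 936.4 and 1190 and from 27.4, 28.9 and 26.0 to 343.1, 382.5 and 323.6. AT2G32020 (3.33) and AT2G32030 (4.02), an acetyltransferase family gene, form another such pair, as do OPCL1 (1.73) and AT1G20520 (1.71). Other pairs were BZIP60 (1.46) beside the PLATZ gene AT1G43000, at least 7.74-fold higher from the floor, and BIK1 (1.35) beside AT2G39650 (3.03). AT5G61560 and AT5G61570 moved apart, at 1.67 and -0.98, the latter at -0.48 with the offset. These shares are a description without a test, and whether probes of similar neighbouring genes share signal was not tested.

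Set against wild type, the mutant response showed no difference that passed the test. Limma called 0 of 18680 probe sets (0%) for the change in the mutant minus the change in wild type, with a lowest adjusted p of 0.975, and 859 (4.6%) had an unadjusted p under 0.05. The interval of such a difference was wide: the median 95% confidence interval, not adjusted for the number of tests, had a half-width of 0.39 log2 units. After adjustment over 18680 probe sets much larger differences also went without a call, such as -1.11 for CSLA01 (adjusted p = 0.975, limma). The 0 calls therefore do not show that the responses were equal. Of the 1111 probe sets higher in the mutant, 1103 had the same sign in wild type, and of the 497 lower, 473 did. The median difference was 0.06 for the rises and -0.16 for the falls, values that the choice of probe sets called in the mutant can set by itself.

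For the 10 named genes with the lowest p-values, 5 in each direction, the difference lay between -1.13 and -0.45 or between 0.62 and 0.64. AT2G39430 had 72.5, 78.4 and 72.8 in water and 62.5, 53.9 and 62.0 in chitooctaose in the mutant, against 50.8, 46.2 and 47.0 and 58.6, 73.9 and 65.7 in wild type, a difference of -0.78 ± 0.14 (SE, unadjusted p = 0.000148 and adjusted p = 0.975, limma). AT2G16630 lay between 241.9 and 248.2 in water and between 195.4 and 200.1 in chitooctaose in the mutant, against 218.5 to 235.0 and 237.2 to 256.5 in wild type (-0.45 ± 0.09). AT5G05230 differed the other way, by 0.64 ± 0.13, with -0.57 in wild type and 0.08 in the mutant. None passed the adjustment.

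Genes with a symbol called in the mutant, 69 higher and 28 lower, gave no call for the difference either. They made up 5.08% and 2.06% of the 1357 tested probe sets with a symbol, near the 5.95% and 2.66% of all tested probe sets. Of the 69 higher ones 60 were called in wild type too, and of the 28 lower ones 9 were, and the changes differed by -1.11 to 0.60 between the genotypes. STZ changed by 5.17 in the mutant and 5.16 in wild type, and PUB23 by 3.43 and 3.36. B120 differed by 0.60 (3.32 and 2.72, unadjusted p = 0.0553, adjusted p = 0.997, limma), and XTH19 by -0.36 (0.63 and 0.99, unadjusted p = 0.0159, adjusted p = 0.975, limma). PDF1.2, not called in the mutant, had 1.21 there and -0.98 in wild type, with an unadjusted p of 0.0187 and an adjusted p of 0.975 for the difference (limma). UGT72E2 was at -0.56 in the mutant and -0.19 in wild type, QQS at -0.83 and -0.33, without a call for the difference. CSLA01 (-0.66 against 0.45), OSM34 (-0.62 against 0.09) and SP1L4 (-0.51 against 0.08) were called lower in the mutant. In wild type they had the opposite sign and were not called. For the difference they had unadjusted p-values of 0.00104, 0.00731 and 0.00315 and an adjusted p of 0.975 each (limma). Each of these mutant calls was lost under some settings. CSLA01 lost it with the offset (-0.29, adjusted p = 0.0755, limma) and without array 3 of the mutant water group (0.151). OSM34 lost it without array 3 of the mutant chitooctaose group (adjusted p = 0.113, limma), and SP1L4 without array 2 of the mutant water group (0.0572).

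**Figure D5:**
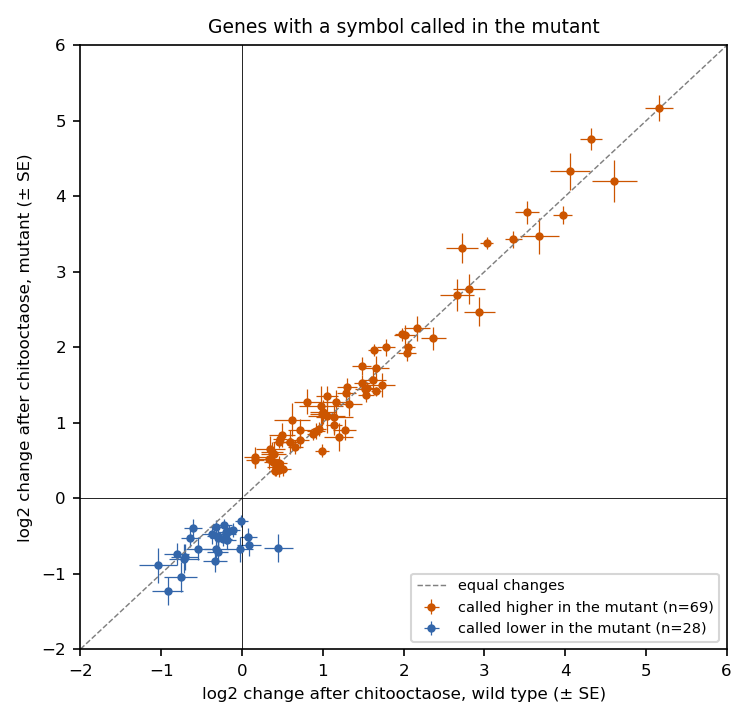
Log2 change after chitooctaose in the erf5/6 mutant (vertical axis) against that in wild type (horizontal axis) for the 97 genes with a symbol that were called in the mutant, with standard errors from the limma fit as bars and equal changes as the dashed line. The 69 genes called higher lie near the line up to STZ at 5.17 and 5.16, and the 28 called lower lie between -1.23 and -0.30 on the mutant axis; the genes were chosen by their mutant change, which favours points away from 0 on that axis.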

How the data were processed

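Expression was measured in whole seedlings on 12 arrays, and the labels' genotype, treatment and replicate numbers set the groups. The deposited values are linear probe set intensities, 1 column per array; the authors' summarization, background correction and scaling are not given in the sources used here. Array medians as deposited lay between 77 and 83.2. The number of arrays limits the precision.

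The intensities were quantile normalized, set to at least 16 and taken to log2; 24.1% of values lay below that floor, and the 4066 probe sets at it on all 12 arrays were left out. The tests came from limma 3.58.1 (R 4.3.3), fitted to all 12 arrays with group means and 1 spread per probe set, with Benjamini-Hochberg adjustment over all 18680 tested probe sets (two-sided). The fit was tested on simulated data. Tables and plots used Python 3.11.15, pandas 2.3.3 and matplotlib 3.10.9. A rise from the floor on all 3 water arrays is printed as a lower bound, the chitooctaose mean over the floor.

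Gene names came from the platform annotation, updated through RefSeq (TAIR10.1); 13513 probe sets have 1 gene, 503 several and 8730 none, and 13436 of those with 1 gene matched RefSeq. Of the tested ones with 1 gene, 9197 carry a locus code. A gene with several probe sets is represented in lists by the brightest. The members, lists and families were chosen with earlier results of these data known. Named were the 30 largest measured rises and 20 falls with non-overlapping groups, the 15 largest lower bounds, the list and family members with the lowest p, and the lowest p-values of the difference in each direction. All 97 called genes with a symbol, the symbol groups, the unnamed probe sets and the pairs of neighbours were added after their values were seen. The labels do not state that replicate numbers pair the samples, and the main fit used no pairing. Alternatives are given in the closing section.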

Additional observations from a re-analysis of the deposited data

How the results depend on the processing

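The count of rises, 1111, stayed between 966 and 1275 under the other processing settings and between 972 and 1154 with any array left out, and was 649 with a minimum change of 2-fold. The count of falls, 497, was 254 with the deposited values as they are, 921 with array weights and 47 with the 2-fold minimum. It lay between 302 and 382 with 1 mutant array left out and between 422 and 595 with 1 wild-type array left out, a set of alternatives chosen after seeing the data. The median change of all probe sets was -0.085 after quantile normalization, -0.064 after median centring and -0.000 with the deposited values. For the difference between the responses the count of 0 became 1 with the offset of 32 (probe set 245250_at, no gene listed, adjusted p = 0.00205, limma). Its difference was -1.22 with the offset and -0.40 in the main fit (unadjusted p = 0.0241, limma). That probe set had 16, 17.6 and 17.3 in water and 328.0, 362.1 and 324.5 in chitooctaose in the mutant, against 58.8, 73.7 and 78.8 and 1873.4, 1904.2 and 1727.2 in wild type. It was thus lower in the mutant under both treatments, with the mutant water arrays at or near the floor. The count was also 1 without array 2 of the mutant water group (probe set 263268_at, adjusted p = 0.00812, limma), where the water arrays had 68.0, 16 and 51.4; leaving out any other array gave 0. The causes of these shifts were not tested.

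Deviations of same-numbered mutant water and chitooctaose arrays from their group means had correlations of 0.054, 0.042 and -0.142. Same-numbered arrays of the 2 genotypes ranged from -0.265 (mutant chitooctaose and wild-type water, array 2) to 0.427 (mutant and wild-type water, array 3). With 3 arrays a group these values cannot decide whether the numbers pair the samples. With the replicate block 1072 probe sets were higher, 445 lower and 0 different between the responses. Of 160 named calls, 122 held under all 21 settings, 38 were lost under at least 1 and 0 changed direction. Of 228 named genes not called, 25 were called under at least 1 setting. The promoter motif description was not run, because no promoter sequences were used here.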
